A study of Mus musculus with 4 samples.

Results

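Lysosomal proteases and their inhibitors were examined in mouse articular cartilage at 3 days after injury. The set held 10 of the 24532 genes in the deposited table: the 6 cysteine cathepsins Ctsb, Ctsc, Ctsh, Ctsl, Ctss and Ctsz, the aspartic cathepsin Ctsd, the asparaginyl endopeptidase legumain (Lgmn), and the 2 cystatins Cst3 (cystatin C) and Cstb (cystatin B, or stefin B). The genes were chosen by symbol after their values in these libraries were known, and Cst3 was included as the most abundant gene of adult injured cartilage. Their levels and injury ratios are therefore given as a description, with no test. In adult injured cartilage Cst3 was at 12611 FPKM, the unit of RNA-seq that divides the fragments of a gene by transcript length and library size, and the next gene, Sparc, was at 11027 FPKM. After injury, 4 of these genes reached 2-fold or more above sham in young cartilage (Ctss, Ctsc, Lgmn and Ctsb), beside 4.57% of all genes above 0 in at least 1 library. In adult cartilage 5 did (the same 4 and Ctsl), beside 6.9%. None was 2-fold lower, beside 1.27% in young and 1.46% in adult cartilage. Because the genes were chosen with their values known, nothing is read from these shares. Under median-of-ratios scaling, which sets the typical gene to the same level in each library, Ctsb no longer passed 2-fold in adult cartilage and Cst3 was 2-fold lower there. Over all genes, 4.41% were then 2-fold higher in adult cartilage, and 527 of 18181 were 2-fold lower.

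Each of the 4 groups was 1 RNA-seq library of wild type C57BL/6 knee cartilage, made from a pool of mice. The groups were young sham (3 weeks of age, 5 mice, day 3), young injured (3 weeks, 10 mice, day 3), adult sham (5 mice, days 3 to 14) and adult injured (10 mice, day 3). The adult age was 12 weeks in the sample titles, 14 weeks in the age field and 10 weeks in the methods of the study. The titles named the injury as DMM surgery (destabilization of the medial meniscus), whereas the methods described full-thickness cartilage injury, a wound made through the cartilage surface with a needle. The labels and the results of the study named the controls sham, whereas its RNA methods called them uninjured. They are written below as sham or after sham surgery, and whether they were operated on was not settled. If they were not, surgery and injury cannot be told apart in the injury ratios. The study compared the ages to examine cartilage regeneration. With 1 library in each group, no standard deviation, interval or p-value could be calculated, and the variation between mice within a pool was not measured. In the adult sham group, age, the longer span of collection days and the pool cannot be told apart.

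Cathepsins are proteases of the lysosome, the acidic compartment in which cells break down proteins. They are made as inactive precursors, and legumain, which cuts after asparagine, processes several of them. In phagocytes and antigen-presenting cells cathepsins digest engulfed material and prepare peptides for major histocompatibility complex (MHC) class II, and when released they can degrade collagen and proteoglycan of the cartilage matrix. Cystatins bind the active site of cysteine cathepsins. Cst3 is secreted by most cells, and Cstb stays mainly in the cytosol. Neither inhibits the aspartic protease Ctsd.

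The sequences 250 bases upstream of the RefSeq transcript starts (GRCm38.p6) are shown for the 3 genes with the largest young injury ratios, for the most abundant protease and for Cst3. RefSeq windows were found for 7 of the 10 genes, with 2 starts for Lgmn. The windows of Ctsl and Ctsc also belong to inner starts. By the gene positions given below, the Ctsl window lies wholly inside its gene, and the end of the Ctsc window does so. Capitals mark the motifs found on either strand, which were chosen after the sequences had been read. They were the E-box CACGTG, the longer form GTCACGTG that contains it and is known from promoters of lysosomal genes, the GC box GGGCGG, the PU.1 motif GAGGAAGT, the interferon-stimulated response element, which is 2 copies of GAAA separated by any 2 bases, and the TATA box TATAAA. All sequences run from 5′ to 3′ in the direction of the gene.
Ctss, chr3:95526536-95526785, plus strand: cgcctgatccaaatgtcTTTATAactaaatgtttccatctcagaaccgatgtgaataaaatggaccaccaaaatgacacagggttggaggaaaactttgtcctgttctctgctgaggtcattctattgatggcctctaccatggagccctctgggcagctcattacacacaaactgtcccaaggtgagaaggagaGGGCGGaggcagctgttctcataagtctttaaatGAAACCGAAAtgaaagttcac
Ctsc, chr7:88277835-88278084, plus strand: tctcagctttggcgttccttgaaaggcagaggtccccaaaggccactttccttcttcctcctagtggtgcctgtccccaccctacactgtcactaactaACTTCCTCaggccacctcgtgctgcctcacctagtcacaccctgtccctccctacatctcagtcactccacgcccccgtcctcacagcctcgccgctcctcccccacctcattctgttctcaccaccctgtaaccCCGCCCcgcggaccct
Lgmn, outer start, chr12:102439729-102439978, minus strand: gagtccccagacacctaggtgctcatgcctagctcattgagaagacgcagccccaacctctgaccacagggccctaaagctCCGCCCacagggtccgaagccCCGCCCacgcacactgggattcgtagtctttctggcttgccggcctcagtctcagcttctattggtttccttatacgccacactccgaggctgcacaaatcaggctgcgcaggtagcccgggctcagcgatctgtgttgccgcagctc
Lgmn, inner start, chr12:102439093-102439342, minus strand: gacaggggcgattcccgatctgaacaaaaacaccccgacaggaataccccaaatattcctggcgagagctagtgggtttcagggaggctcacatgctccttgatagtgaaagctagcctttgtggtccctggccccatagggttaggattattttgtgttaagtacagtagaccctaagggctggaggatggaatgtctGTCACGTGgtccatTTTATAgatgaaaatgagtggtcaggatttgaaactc
Ctsd, chr7:142387828-142388077, minus strand: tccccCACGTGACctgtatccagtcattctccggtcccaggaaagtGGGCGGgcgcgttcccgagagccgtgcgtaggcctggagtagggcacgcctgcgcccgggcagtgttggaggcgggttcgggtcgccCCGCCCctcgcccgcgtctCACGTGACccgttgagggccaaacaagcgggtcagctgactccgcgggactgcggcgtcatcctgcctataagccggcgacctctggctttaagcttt
Cst3, chr2:148875513-148875762, minus strand: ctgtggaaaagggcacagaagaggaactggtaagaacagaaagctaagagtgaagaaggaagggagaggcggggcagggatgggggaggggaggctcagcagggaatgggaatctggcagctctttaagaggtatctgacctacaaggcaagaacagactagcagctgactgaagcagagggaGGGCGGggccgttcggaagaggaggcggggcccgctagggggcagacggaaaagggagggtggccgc

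The Ctss window held the interferon-stimulated response element at 21 to 12 bases before the start, a motif present in 2.98% of 32851 RefSeq windows of the same length. GAGGAAGT occurred in the Ctsc window at 151 to 144 bases before the start and in 2.44% of all windows. Ctsd had GTCACGTG at 2 places, 245 to 238 and 98 to 91 bases before its start, and the inner start of Lgmn had it at 51 to 44 bases. That motif was found in 1.85% of all windows. The shorter CACGTG was also in the Ctsl window, which lies inside the gene before an inner start, and was in 6.02% of all windows. Cst3 held a GC box at 67 to 62 bases before its start and none of the other motifs. The GC box was found in the windows of 6 of the 7 genes and in 32.7% of all windows. TATAAA was in those of Ctss and Lgmn and in 12.4%. The GC content was 67.2% for Ctsd, 60.4% for Ctsc and 44.8% for Ctss, beside a median of 52.4% over all windows. These are letter matches, and binding of any factor was not measured in these data.

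The cells behind each library were checked through marker genes. All 19 chondrocyte markers reached 1 FPKM in every library, and Col2a1, the main cartilage collagen, was at 9349 FPKM in sham and 7903 in injured cartilage of young mice and at 3173 and 3750 FPKM in adult mice. Its adult log2 injury ratio was 0.24 as deposited and -0.10 after median-of-ratios scaling. Here and below, pairs of values give sham first and injured next. The libraries were labelled as chondrocytes, but markers of other cells were present in all of them, and no marker of any list was at 0. The 20 macrophage markers summed to 249.5 FPKM in young cartilage after sham surgery and 2351 after injury, and 384.2 and 2061 in adult cartilage, and 19 of the 20 were 2-fold higher after injury at each age. The 10 osteoclast markers, which include the cathepsin Ctsk, summed to 298.3 and 735.2 FPKM in young and to 378.7 and 1381 FPKM in adult cartilage. The 12 neutrophil markers summed to 1302 and 3157 FPKM in young and to 1727 and 4105 FPKM in adult cartilage, where the excess was largely Lcn2, at 82.7 and 2117 FPKM. Without Lcn2, also added after the data had been seen, the neutrophil sums were 1238 and 2518 FPKM in young and 1644 and 1989 FPKM in adult cartilage. S100a8 and S100a9, the largest parts of that adult sum, had adult log2 ratios of 0.15 and 0.24. These became -0.19 and -0.10 after median-of-ratios scaling, and the adult median of the 12 markers went from 0.39 to 0.06. Of the 12 markers, Lcn2 included, 5 were 2-fold higher in young and 3 in adult cartilage. The 12 fibroblast markers summed to 2867 and 8433 FPKM and to 3000 and 12776 FPKM. In such bulk tissue, more cells of a type and more RNA per cell cannot be told apart, and the part of these cell types in the results below was not tested.

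The libraries also differed in overall level. Among 10891 genes at 1 FPKM or more in all 4 libraries, the median log2 injury ratio was -0.04 in young and 0.23 in adult cartilage, and the median for adult against young sham was -0.30. Median-of-ratios scaling brought these medians to -0.05, -0.06 and 0.07. Adult log2 ratios of single genes are therefore given with the scaled value where it changed the call or the direction.

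The cysteine cathepsin Ctss showed the largest injury ratio of the set at both ages. It is an endopeptidase that stays active at neutral pH and trims the invariant chain from MHC class II in antigen-presenting cells. Its level was 9.43 FPKM in young cartilage after sham surgery and 258.1 after injury, and 14.1 and 194.4 in adult cartilage. Both injured libraries were above both sham libraries. The injury ratio was 27.4-fold in young (log2 4.63) and 13.7-fold in adult cartilage (log2 3.69), where the log2 value is that of FPKM + 1 and the fold is the ratio of FPKM. Among all genes Ctss stood at rank 5642 by FPKM in young sham and at rank 278 in young injured cartilage, and at ranks 3489 and 319 in adult cartilage.

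Ctsc, a dipeptidyl peptidase that activates the granule serine proteases of neutrophils, mast cells and cytotoxic lymphocytes, was the least abundant gene of the set in every library. It was at 1.44 FPKM in young cartilage after sham surgery and 21.4 after injury, and 1.31 and 15.7 in adult cartilage. The sham libraries were close to each other, and both injured libraries were far above them. The ratio was 14.9-fold in young (log2 3.20) and 12.0-fold in adult cartilage (log2 2.86). If the smallest step between FPKM values is 1 fragment, the sham levels correspond to 94.6 to 122 fragments in the young and 101 to 130 in the adult library, depending on the transcript length. Such numbers cover counting error only.

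Lgmn was at 34.9 FPKM in young cartilage after sham surgery and 208.8 after injury, and 59.8 and 163.2 in adult cartilage. The young libraries lay at both ends of this order and the adult libraries between them. The injury ratio was 5.98-fold in young (log2 2.55) and 2.73-fold in adult cartilage (log2 1.43). The adult log2 ratio was thus below the young one by 1.11, the widest gap between the ages among the 10 genes. This gap was not tested.

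Ctsb, which works both as an endopeptidase and as a peptidase at the carboxyl end, was at 118.7 FPKM in young cartilage after sham surgery and 336.7 after injury, and 139.1 and 311.3 in adult cartilage. It was the most abundant of the 6 cysteine cathepsins of the set after injury at both ages. Its injury ratio was 2.84-fold in young and 2.24-fold in adult cartilage (log2 1.16), and the adult value was 0.82 after median-of-ratios scaling, under 2-fold.

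Ctsl had the widest excess of the adult over the young ratio, 0.85 on the log2 scale. This endopeptidase of most cell types was at 38.9 FPKM in young cartilage after sham surgery and 71.5 after injury, and 22.9 and 77.1 in adult cartilage. The injured libraries lay close together, and adult sham was the lowest. The ratio was 1.84-fold in young (log2 0.86) and 3.37-fold in adult cartilage (log2 1.71). Ctsl shared 7.68% of its 31-base transcript words with other genes, so a part of its reads may be uncertain.

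The exopeptidases Ctsh and Ctsz, which remove residues from the amino end and the carboxyl end of proteins, were closer to their sham levels. Ctsh was at 42.9 FPKM in young cartilage after sham surgery and 64.4 after injury, and 59.8 and 97.4 in adult cartilage, with ratios of 1.5-fold and 1.63-fold. Ctsz was at 92.1 and 148.2 FPKM in young and 181.0 and 199.2 FPKM in adult cartilage, with ratios of 1.61-fold and 1.10-fold. Both adult libraries of Ctsz were above both young libraries. The adult injury log2 ratio of Ctsz, 0.14, changed sign to -0.20 after median-of-ratios scaling and to -0.01 after quantile normalization.

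Ctsd, the main aspartic protease of the lysosome, was the most abundant protease of the set in every library. It was at 544.8 FPKM in young cartilage after sham surgery and 981.4 after injury, and 602.7 and 946.0 in adult cartilage. The sham libraries were within 1.11-fold of each other and the injured libraries were above both. The injury ratio was 1.80-fold in young (log2 0.85) and 1.57-fold in adult cartilage (log2 0.65). Of its transcript words, 33.2% also occurred in other genes, most of all in the predicted gene Gm49369, so the division of reads between them is uncertain. Whether Gm49369 overlaps Ctsd was not determined.

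**Figure D1:**
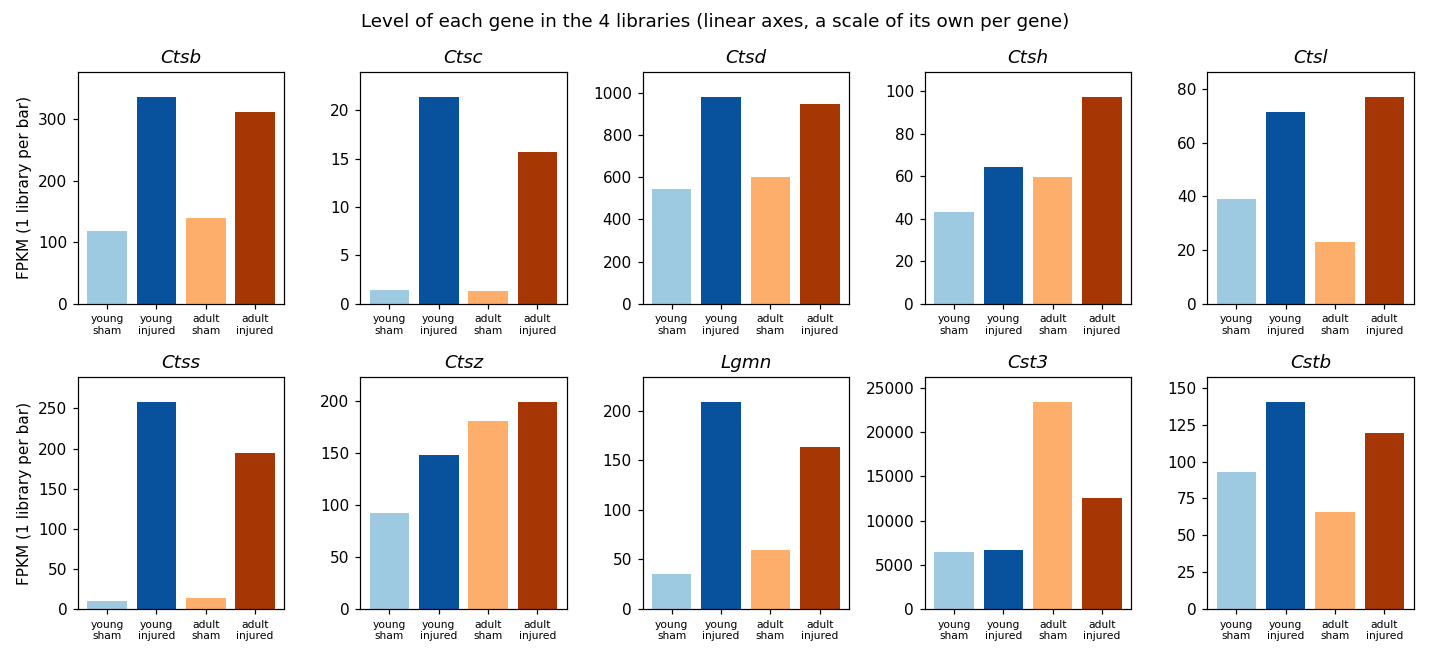
FPKM of the 10 genes in the 4 libraries, 1 bar per library, each gene on its own linear axis from 0. Apart from Ctsz and Cst3, each gene was higher in both injured libraries than in both sham libraries. Cst3 was highest in adult sham cartilage at 23432 FPKM.

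Of the cystatins, Cst3 was at 6486 FPKM in young cartilage after sham surgery and 6634 after injury, and 23432 and 12611 in adult cartilage. The young libraries were alike and the adult sham library was the highest. The injury ratio was 1.02-fold in young (log2 0.03) and 0.538-fold in adult cartilage (log2 -0.89), which reached -1.23 after median-of-ratios scaling, past 2-fold lower. Quantile normalization, which forces the most abundant genes of each library to the same values, gave -0.16 in young and 0.16 in adult cartilage. These signs follow from the rank of Cst3 alone, so that scaling cannot show whether its level fell. The adult ratio was below 1 as deposited and after median-of-ratios scaling, and the sign of the young ratio, close to 0, depended on the scaling. By rank Cst3 stood at 6 and 7 in young and at 2 and 1 in adult cartilage. It made up 1.32% and 1.24% of the summed FPKM of the young libraries and 4.66% and 2.68% of the adult ones. The 19 chondrocyte markers summed to 31645 and 26396 FPKM in young and to 67920 and 31269 FPKM in adult cartilage, with the adult sham library highest. Cytl1 and Chad carried that sum, and without them, an alternative added after the data had been seen, it was 28216 and 23688 FPKM in young and 20840 and 17438 FPKM in adult cartilage. In adult against young sham, 15 of the 19 markers were lower, 11 of them by 2-fold, with a median log2 ratio of -1.56, so most of the list did not share the pattern of Cst3. The 10 muscle markers summed to 913.4 and 715.1 FPKM in young and to 1759 and 475.9 FPKM in adult cartilage. Of the erythroid markers, 7 were in the table, and they summed to 9674 and 18440 FPKM in young and to 6955 and 3031 FPKM in adult cartilage. Hbb-bs, at 2868 and 83.4 FPKM, carried most of the adult difference, while Hba-a2 was at 3584 and 2811 FPKM. Hbb-b1 and Hbb-b2 were not on the list, though at ranks 2 and 4 in young injured cartilage. The muscle and erythroid sums, like Cst3, were lower after injury in adult cartilage, and the part of other cells in the Cst3 values was not tested. First rank in adult injured cartilage thus came with a lower FPKM than in adult sham, where Cytl1 was above it at 26541 FPKM.

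Cstb was at 93.0 FPKM in young cartilage after sham surgery and 140.4 after injury, and 65.5 and 119.0 in adult cartilage. Each injured library was above both sham libraries. The injury ratio was 1.51-fold in young (log2 0.59) and 1.82-fold in adult cartilage (log2 0.85). Cstb was thus higher after injury at the age at which Cst3 was lower.

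**Figure D2:**
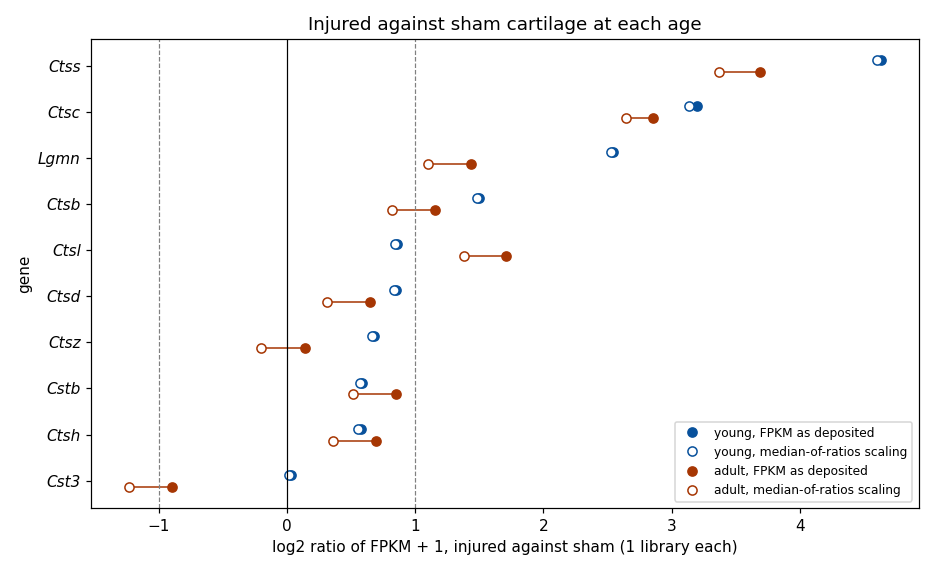
Log2 ratio of FPKM + 1, injured against sham, for the 10 genes in young (blue) and adult (red) mice, as deposited (filled points) and after median-of-ratios scaling (open points). Dashed lines mark 2-fold. Ctss and Ctsc lay beyond 2-fold on either scale at both ages, and Cst3 was at 0.03 in young and -0.89 in adult cartilage. Both signs of Cst3 were reversed under quantile normalization, which follows its rank alone.

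In young cartilage, 4 of the 10 genes were 2-fold higher, beside 4.57% of the 18181 genes above 0 in at least 1 library, and 0 were 2-fold lower, beside 1.27%. In adult cartilage 5 of 10 were 2-fold higher, beside 6.9% of all genes, and 0 were lower, beside 1.46%. Because the genes were chosen with these ratios known, nothing is read from these shares. Among the 5314 genes whose mean reached 10 FPKM, 4.93% were 2-fold higher in young and 8.69% in adult cartilage. After median-of-ratios scaling the shares were 4.36% and 4.41% of the 18181 genes, with 4 of the 10 genes higher at each age and Cst3 lower in adult cartilage. On that scale 527 of the 18181 genes were 2-fold lower in adult cartilage. All 8 proteases had ratios above 1 at both ages as deposited, and the median of their log2 ratios was 1.18 for young and 1.29 for adult mice. After median-of-ratios scaling these medians were 1.16 and 0.96, the adult one now the lower and under 2-fold. Median-of-ratios scaling and quantile normalization put the adult ratio of Ctsz below 1.

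The 8 proteases were also summed. They came to 883.3 FPKM in young cartilage after sham surgery and 2090 after injury, and 1081 and 2004 in adult cartilage. The adult injured sum was 0.959 of the young injured sum as deposited. As a share of the summed FPKM of its library it was 1.09-fold the young one, at 0.427% beside 0.392%. The make-up of the sum differed between sham and injured cartilage. Ctsd accounted for 61.7% of it in young sham and 46.9% in young injured cartilage, and for 55.8% and 47.2% in adult cartilage. Ctss accounted for 1.07% and 12.3% in young cartilage and for 1.31% and 9.70% in adult cartilage. Lgmn went from 3.95% to 9.99% of the sum in young and from 5.53% to 8.14% in adult cartilage. Ctsz made up 16.7% and 9.94% of it in adult cartilage.

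The cysteine cathepsins were then set against the cystatins within each library, a ratio that does not depend on a common scaling of the library. The 6 cathepsins summed to 4.61 FPKM per 100 FPKM of Cst3 and Cstb in young cartilage after sham surgery and 13.3 after injury, and 1.78 and 7.03 in adult cartilage. The ratio was 2.88-fold higher after injury in young and 3.95-fold higher in adult cartilage, and the adult injured ratio was 0.529 of the young injured one. Quantile normalization reversed the order of the ages, with 3.06-fold in young and 1.72-fold in adult cartilage. In that scaling Cst3, most of the denominator, follows its rank and not its measured level. Cst3 formed 97.9% to 99.7% of the cystatin sum, so the denominator was in effect that gene. The summed cathepsins themselves were 303.6 and 900.3 FPKM in young and 418.2 and 895.0 FPKM in adult cartilage, nearly equal in the 2 injured libraries. Set against Cstb alone, the ratio was 3.26 in young cartilage after sham surgery and 6.41 after injury, and 6.39 and 7.52 in adult cartilage. These are ratios of transcript levels, and protein and enzyme activity were not measured.

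**Figure D3:**
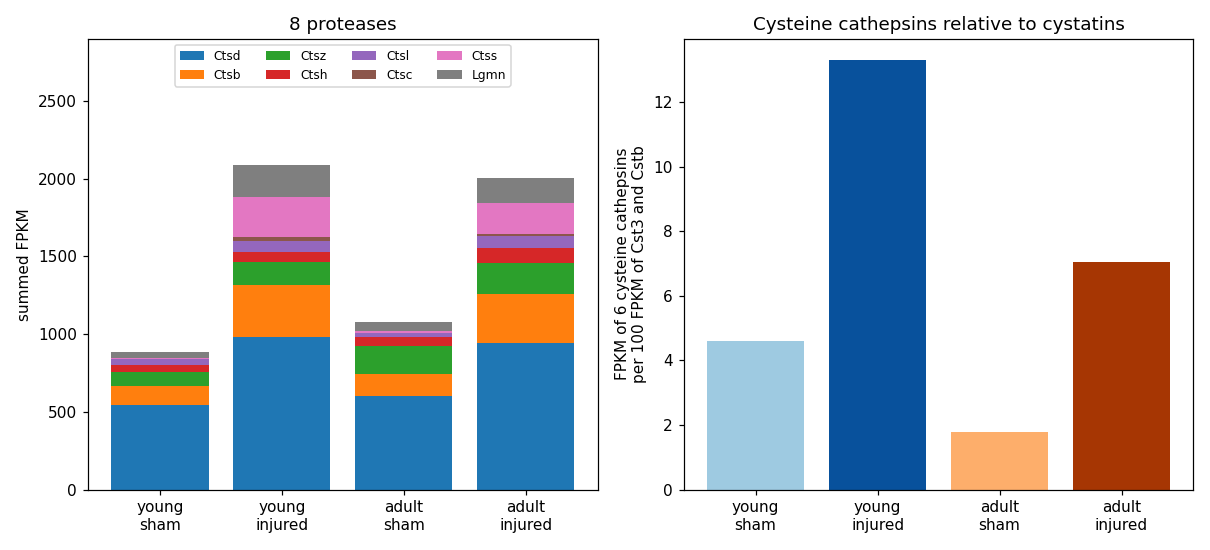
Left, summed FPKM of the 8 proteases in each library, stacked by gene. Right, FPKM of the 6 cysteine cathepsins per 100 FPKM of Cst3 and Cstb. The stacked sums were 2090 and 2004 FPKM in the young and adult injured libraries, and the ratio was highest in young injured cartilage at 13.3.

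The ages were compared directly in each state. These comparisons share libraries with the injury comparisons and are not independent of them. In sham cartilage, Cst3 was 3.61-fold higher in adult than in young mice (log2 1.85) and was the only gene of the 10 past 2-fold, beside 2.66% of all genes higher and 10.6% lower. Ctsz was 1.96-fold and Lgmn 1.71-fold higher in adult sham, and both passed 2-fold after median-of-ratios scaling, at log2 1.40 and 1.19. After that scaling, 1065 of the 18181 genes were 2-fold higher in adult sham and 932 were lower. Ctsl was 0.588 of its young level and Cstb 0.704. Ctsd and Ctsc differed less, at 1.11-fold and 0.910-fold, though after scaling the log2 ratio of Ctsd was 0.58 and that of Ctsc changed sign from -0.08 to 0.18.

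In injured cartilage, none of the 10 genes differed by 2-fold between the ages, beside 1.8% of all genes higher and 3.09% lower in adult mice. Cst3 was 1.90-fold higher in adult cartilage (log2 0.93), which became 1.04 after median-of-ratios scaling. With that scaling, 399 of the 18181 genes were 2-fold higher in adult mice and 460 were lower. Ctsh was 1.51-fold and Ctsz 1.34-fold higher in adult cartilage. Ctsc, Ctss and Lgmn were at 0.734, 0.753 and 0.782 of their young injured levels. The adult injured levels of Ctsb, Ctsd and Ctsl were 0.924, 0.964 and 1.08 of the young ones. Median-of-ratios scaling changed the sign of the log2 ratio from -0.11 to 0.00 for Ctsb and from -0.05 to 0.06 for Ctsd.

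Because macrophage markers were also higher after injury, the genes were set against the summed FPKM of the 20 markers in the same library. Ctss was at 3.78 FPKM per 100 FPKM of the markers in young cartilage after sham surgery and 10.98 after injury, and 3.68 and 9.43 in adult cartilage. Its level relative to these markers was thus 2.90-fold and 2.56-fold higher after injury, and nearly the same at both ages in sham cartilage. Ctsc was at 0.575 and 0.910 in young and 0.340 and 0.763 in adult cartilage, also higher after injury. Lgmn was at 13.99 and 8.88 in young and 15.6 and 7.92 in adult cartilage, lower in both injured libraries. Ctsb, at 47.6 and 14.3 in young and 36.2 and 15.1 in adult cartilage, and Ctsd, at 218.3 and 41.7 and at 156.9 and 45.9, were lower after injury by this measure, as were the other 5 genes.

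Lyz2, a lysozyme of macrophages and neutrophils, made up more than any other marker of the macrophage sum, at 1271 FPKM in young injured and 1090 in adult injured cartilage. Without Lyz2, an alternative added after the data had been seen, Ctss was at 8.73 and 23.9 FPKM per 100 FPKM of the remaining markers in young and 7.04 and 20.01 in adult cartilage, and Ctsc at 1.33 and 1.98 and at 0.650 and 1.62. The direction was unchanged for both genes. The median log2 injury ratio of the 20 markers was 3.12 in young and 2.26 in adult cartilage, beside 3.20 and 2.86 for Ctsc. Some single markers had larger ratios than Ctsc at each age, so its direction by this measure depends on the markers summed.

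**Figure D4:**
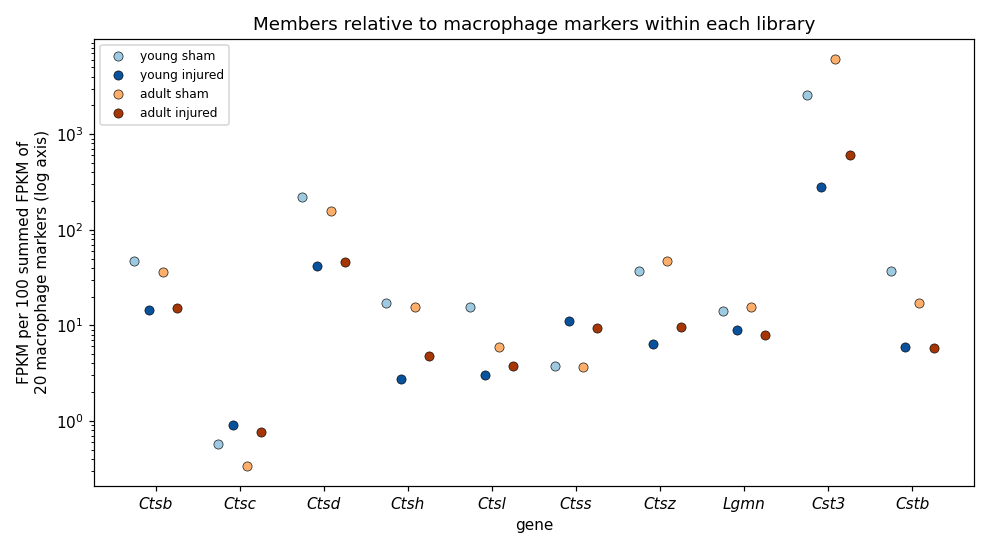
FPKM of each gene per 100 summed FPKM of 20 macrophage markers, on a log axis, 1 point per library. Ctss and Ctsc were higher in the injured than in the sham libraries by this measure, and the other 8 genes were lower.

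The genes with profiles most like the set were sought among the same 5314 genes. Likeness was the root mean square difference of log2(FPKM + 1), each gene centred on its own mean over the 4 libraries, and it is a description of 4 values per gene. Nearest to Ctsc were Ccr2 (0.04), Lilr4b and Fcer1g (both 0.12), and Ccr2 and Fcer1g were on the macrophage list. The gene nearest to Ctss was Ms4a6d (0.12), and the next, Ccl9 and Hmox1, were much farther at 0.30. Lgmn was closest to Ifi27l2a (0.11), Bst2 (0.13) and Skap2 (0.19). For Ctsb the nearest was Tagln2 (0.07), for Ctsl Tgfbi (0.07) and for Ctsd Msn (0.05). Ctsh was nearest to Glmp (0.01) and Phc2 (0.04), with Psap, the precursor of the saposins of the lysosome, at 0.05. Ctsz was nearest to Vat1 and Shisa5 (both 0.04), Cst3 to Ppp3ca (0.04) and Cstb to Med10 (0.02). Within the set the closest pairs were Ctsh with Ctsz (0.22) and Cstb with Ctsd (0.24).

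Other genes of the lysosome were taken from lists to see whether the pattern extended beyond the set. Among 16 other cathepsins, 7 were above 0 in at least 1 library, and the 9 cathepsins of the rodent placental cluster were at 0 in all 4. Ctsw, a cathepsin of natural killer and T cells, was 2-fold higher in young cartilage (log2 1.14), at 0.865 and 3.12 FPKM. In adult cartilage it was at 6.83 and 7.58 FPKM (log2 0.13, and -0.17 after median-of-ratios scaling). No other cathepsin passed 2-fold in young cartilage, and none at all did under quantile normalization or at a pseudocount of 5 FPKM. Ctsk, the collagen-degrading cathepsin of osteoclasts, was at 87.4 and 170.8 FPKM in young and 135.9 and 403.3 FPKM in adult cartilage, and passed 2-fold in adult cartilage (log2 1.56) but not in young cartilage (log2 0.96). Its adult injured level exceeded that of every cysteine cathepsin of the set.

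Of 21 other cystatins, 12 were above 0, with 2 of them 2-fold higher in young cartilage and 4 in adult cartilage. These were the stefin genes Stfa1 and Stfa2l1 in young mice, and Stfa2, Stfa2l1, Stfa3 and Cst7 in adult mice. All were low. Stfa3 reached 9.62 FPKM in adult injured cartilage and Stfa2l1 was at 1.23 and 5.82 FPKM in young and 0.157 and 4.53 FPKM in adult cartilage. Stfa1, Stfa2 and Stfa2l1 shared 33.3% to 43.8% of their transcript words with other genes, so the split among them is uncertain.

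Of 35 other lysosomal hydrolases, 1 was 2-fold higher in young cartilage and 2 in adult cartilage, and none was 2-fold lower. After median-of-ratios scaling 1 was higher and 1 lower in adult cartilage. Lipa, the acid lipase that splits cholesteryl esters, was at 4.82 and 17.5 FPKM in young and 2.62 and 14.1 FPKM in adult cartilage and passed 2-fold at both ages (log2 1.67 and 2.06). The median log2 ratio of the 35 hydrolases was 0.35 at both ages, and 0.02 in adult cartilage after median-of-ratios scaling. For comparison, the median over all 18181 genes was 0.00 in young and 0.14 in adult cartilage.

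The 25 genes of the lysosomal membrane and its proton pump had medians of 0.25 and 0.38. None passed 2-fold in young cartilage. In adult cartilage the pump subunits Atp6v1b2 and Atp6v1g1 were higher (log2 1.16 and 1.33), and the subunit Atp6v0c was lower (log2 -2.30). Atp6v0c was at 228.6 FPKM in young cartilage after sham surgery and 300.0 after injury, and 27.6 and 4.83 in adult cartilage, so it was lower in both adult libraries than in both young ones. It shared 11.9% of its transcript words with other genes, most of all with the pseudogene Atp6v0c-ps2. The 9 genes of lysosomal sorting and gene control, among them Tfeb, a regulator of lysosomal genes, had medians of 0.13 and 0.26, and none passed 2-fold at either age. After median-of-ratios scaling the adult median was 0.07 for the membrane and pump genes and changed sign to -0.02 for sorting and gene control. Tfeb itself was at 7.06 and 7.52 FPKM in young and 6.86 and 10.1 FPKM in adult cartilage.

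Of 9 serine proteases that Ctsc activates, 4 reached 1 FPKM in any library, and the other 5 were too low to pass 2-fold on the scale of FPKM + 1. None was 2-fold higher in young cartilage, and Gzma, a granzyme of cytotoxic lymphocytes, was in adult cartilage, at 0.324 FPKM in sham and 2.72 in injured. With a pseudocount of 0.1 FPKM, 2 were 2-fold higher in young and 4 in adult cartilage. Elane, the neutrophil elastase, was at 15.6 and 18.6 FPKM in young and 38.0 and 37.0 FPKM in adult cartilage. Of 8 genes of the MHC class II route, 5 were 2-fold higher at both ages, namely Cd74, H2-Aa, H2-Ab1, H2-Eb1 and H2-DMa. Cd74, the invariant chain that Ctss trims, was at 28.8 FPKM in young cartilage after sham surgery and 76.3 after injury, and 26.5 and 139.3 in adult cartilage (log2 1.37 and 2.35). Its ratio was larger in adult cartilage, whereas that of Ctss was larger in young cartilage. Of the 104 genes of these 7 lists above 0 in at least 1 library, 9 (8.65%) were 2-fold higher and 0 lower in young cartilage, beside 4.57% and 1.27% of all genes. In adult cartilage 15 (14.4%) were higher and 1 (0.962%) lower, beside 6.9% and 1.46%. The lists were chosen with earlier results known, and nothing particular to them is read from these shares. After median-of-ratios scaling the adult log2 ratios of Atp6v1b2, H2-DMa and Cst7 were under 2-fold, at 0.84, 0.92 and 0.88.

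**Figure D5:**
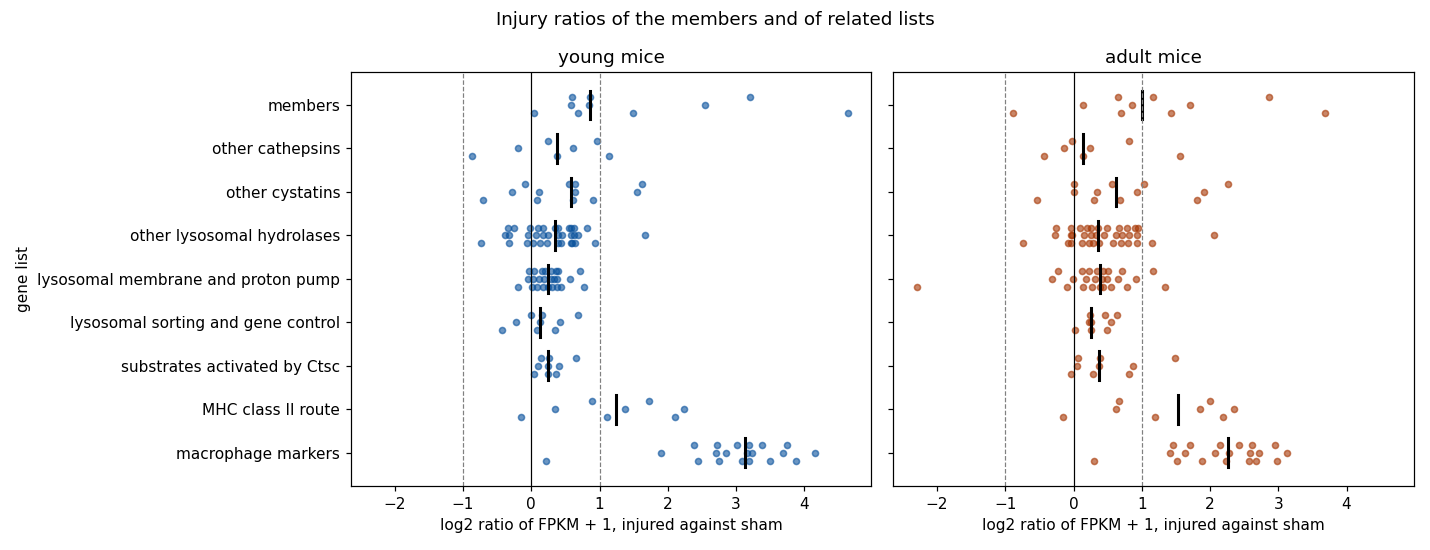
Log2 ratio of FPKM + 1, injured against sham, for each gene of the set, of 7 related lists and of the macrophage markers, in young (left) and adult (right) mice. Points are genes, black bars medians and dashed lines 2-fold. The hydrolase, membrane and sorting lists sit near 0, with medians from 0.13 to 0.38 as deposited, the 10 genes at 0.85 and 1.00 (0.67 in adult mice after median-of-ratios scaling), and the MHC class II route at 1.24 and 1.52.

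The positions on GRCm38, as RefSeq gives them, were chromosome 2 for Cst3 (148871722 to 148875512) and Ctsz (174427494 to 174439039), chromosome 3 for Ctss (95526786 to 95556405), chromosome 7 for Ctsc (88278024 to 88315861) and Ctsd (142375910 to 142387827), chromosome 9 for Ctsh (90054267 to 90076095), chromosome 10 for Cstb (78425670 to 78427622), chromosome 12 for Lgmn (102394082 to 102439728), chromosome 13 for Ctsl (64361890 to 64370772) and chromosome 14 for Ctsb (63122462 to 63145923). Cst3, Cstb, Ctss and Ctsz shared no 31-base transcript word with another gene.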

How the data were processed

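RNA-seq libraries of poly(A)-selected, strand-specific RNA were made by the authors, 1 per group. The deposited values are FPKM per gene, already divided by the authors by transcript length and mapped fragments. The submitters' processing notes name HISAT2 2.1.0, StringTie 1.3.4d, STAR, SAMtools and mm10. If 1 step of FPKM is 1 fragment, the 4 libraries held 25900000 to 30900000 fragments, and their summed FPKM ranged from 469939 to 533468. All 4 columns were matched to samples by name. Ratios of log2(FPKM + 1) were calculated over all genes, with Python 3.11.15 (pandas 2.3.3, numpy 2.4.6), and called at 2-fold, with no test because each group was 1 library. The calculation was tested on simulated data. Alternatives were pseudocounts of 0.1 and 5 FPKM, 2 filters, 3 scalings and calls at 1.5-fold and 3-fold. The 10 genes and the lists were chosen with earlier results of these data known. Named list genes are those past 2-fold in an injury comparison, and named profiles are the nearest of 3 genes ranked per member. Others (Sparc, Cytl1, Chad, Col2a1, Lcn2, S100a8, S100a9, Lyz2, Tfeb, Elane, Hbb-bs, Hba-a2, Hbb-b1, Hbb-b2) were chosen after their values were seen. The values of 1 list gene are not given.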

Additional observations from a re-analysis of the deposited data

Results flagged for a closer look

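The injury ratios of Cst3 had opposite signs at the 2 ages, at log2 0.033 for young mice and -0.89 for adult mice. Each value compares 1 library with 1 library, and the difference between the ages was not tested. The young value is close to 0, and its sign changed under TPM scaling, which gives all libraries an equal sum (-0.08), while both signs reversed under quantile normalization (-0.16 and 0.16). Those reversed signs follow the rank of Cst3 alone, at 6 and 7 in young and 2 and 1 in adult cartilage (sham first).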

How the results depend on the processing

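No paired analysis was possible because each group was 1 library, so no replicate could be left out either. Of 356 log2 ratios of the 10 genes under the alternatives, 318 kept their direction and side of the threshold, 21 passed the threshold only there, 4 no longer passed it, and 13 changed sign while staying under 2-fold. At a threshold of 1.5-fold, the genes counted as higher were 8 in young injury, 8 in adult injury, 3 in adult against young sham and 2 in adult against young injured cartilage, with 1 lower in adult injury and 1 in sham. At 3-fold, 3 were higher in adult injury. The shares of all genes at these thresholds were not calculated, so nothing is read from the counts. Median-of-ratios scaling gave 1 gene lower in adult injury, 3 higher in adult sham and 1 higher in adult injured against young injured, quantile normalization 3 and 1 for the last 2, and rescaling to a common sum (TPM) 1 for the last. Counts over all genes under median-of-ratios scaling are given with the results above, and those under quantile normalization and TPM were not calculated. For the lists (9 higher in young, 15 in adult), the counts were 17 and 24 at a pseudocount of 0.1, 30 and 37 at 1.5-fold, 5 and 8 at 3-fold, 4 and 8 where the mean had to reach 10 FPKM, 5 in young at a pseudocount of 5 and 23 in adult under TPM. Genes lower in young numbered 1 at a pseudocount of 0.1, 1 under TPM and 3 at 1.5-fold, and in adult 2 at a pseudocount of 0.1, 2 under median-of-ratios scaling and 2 at 1.5-fold. Cathepsins per 100 cystatin FPKM (young sham and injured, then adult sham and injured) were 4.47, 9.48, 1.72 and 5.50 without Ctss, 5.15, 16.4, 2.03 and 8.31 with Lgmn, 4.68, 13.6, 1.78 and 7.10 over Cst3 alone, and 4.31, 13.2, 3.10 and 5.33 after quantile normalization. The injured value exceeded the sham value at each age in all of these. With a mean of 9.96 FPKM, Ctsc had no value under the filter on the mean. Apart from the thresholds and filters, the cause of these changes was not tested.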
